A study of Mus musculus with 6 samples.

Results

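The 10 genes described here encode the PGC1 coactivators and the factors that act below them in making mitochondria: Ppargc1a and Ppargc1b, the nuclear transcription factors Esrra, Nrf1 and Gabpa, the mitochondrial transcription genes Tfam, Tfb2m and Polrmt, and the mitochondrial DNA replication genes Polg and Twnk. They were chosen by name, and their identifiers were found through the symbols of the mouse annotation. All 10 of them are among the 27067 gene identifiers of the count table, and all 10 passed the filter on low counts together with 15150 genes in all. The cells were B16F10, a pigmented melanoma line of mouse origin, in 3 control libraries (columns named blank) and 3 treated libraries. Treated cells were given an extract of the plant Polianthes tuberosa L., and both groups were sequenced from polyadenylated RNA. By its title the study concerns pigment formation and cAMP/CREB and MAPK signalling. No dose, time, solvent or genetic change is stated in the labels, and no label says that the libraries of a group came from separate cultures, so the p-values measure the spread between these libraries, which may be technical.

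PGC1 alpha and PGC1 beta bind no DNA themselves. They are brought to genes by transcription factors such as the estrogen-related receptor ERR alpha and the nuclear respiratory factors NRF1 and GABP, and raise transcription of respiratory chain genes and of the genes that copy and read mitochondrial DNA. In melanocytes and in some melanomas the pigment cell factor MITF activates Ppargc1a, and in many tissues cAMP signalling through CREB does so too.

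The libraries held between 31183728 and 40129044 counts. Correlations of log2 CPM (counts per 1000000, on totals scaled by TMM) were 0.993 to 0.994 within a group and 0.985 to 0.986 across groups. The pigment cell markers Pmel, Mlana, Dct, Tyr, Tyrp1, Mitf and Sox10 summed to 16700 to 17300 CPM in control and 13890 to 14700 CPM in treated libraries, where 6 of the 7 were lower and Tyrp1 higher past the threshold. The part of this in the results below was not tested. Fibroblast markers (4 of 6, Dcn and Thy1 not analysed here) summed to 7.11 to 10.6 CPM in control and 9.82 to 11.2 CPM in treated libraries, and endothelial markers (5 of 5) to 1.31 to 2.12 and 3.23 to 3.98 CPM. Immune markers (4 of 6) summed to 0.74 to 1.10 and 1.21 to 1.89 CPM, with Ptprc and Itgam at 0 counts in the controls, as were the endothelial Cdh5 and Kdr. Col1a1, Vwf and Lyz2, of the fibroblast, endothelial and immune lists, were higher in treated libraries past the threshold. Keratinocyte markers (2 of 5) reached at most 0.0589 CPM and markers of brown fat and muscle (3 of 6) at most 0.354 CPM. In bulk RNA fewer cells of a type and less RNA per cell cannot be told apart.

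Promoters of the largest riser and the largest faller are shown first, because the motifs that the transcription factors among these genes read can be looked for in them. RefSeq promoter windows on GRCm38.p6 (250 bases before to 50 after a start) were found for 9 of the 10 genes, in 11 windows, and none was found for Ppargc1b. The sequences below are the 250 bases upstream, 5′ to 3′ on the gene's strand. Capitals mark matches on either strand to the NRF1 motif GCGCANGCG, the ETS motif CCGGAAG that GABP reads, the ERR core AAGGTCA, the short CRE TGACG of CREB, the M-box TCATGTG of MITF or the E-box CACGTG. The ERR core lies within the full ERR motif and the short CRE within the full CRE, and both strands were searched. Positions count from 0 at the first transcribed base.

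The Ppargc1a window lies on the minus strand at chr5:51567726-51567975 and the Polrmt window on the minus strand at chr10:79746582-79746831.
Ppargc1a: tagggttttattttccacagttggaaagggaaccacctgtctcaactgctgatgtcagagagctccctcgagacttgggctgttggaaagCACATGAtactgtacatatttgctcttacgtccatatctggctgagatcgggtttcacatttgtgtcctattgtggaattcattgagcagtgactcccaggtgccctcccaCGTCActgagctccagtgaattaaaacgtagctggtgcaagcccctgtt
Polrmt: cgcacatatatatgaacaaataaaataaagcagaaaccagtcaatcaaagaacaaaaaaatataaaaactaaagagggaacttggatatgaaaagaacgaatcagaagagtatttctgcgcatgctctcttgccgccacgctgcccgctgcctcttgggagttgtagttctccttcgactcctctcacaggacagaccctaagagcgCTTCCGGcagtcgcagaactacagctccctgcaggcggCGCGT

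The Ppargc1a window held an M-box match starting at -160 and a short CRE match at -49. It held no match to the NRF1, ETS or ERR core letters. The Polrmt window held an ETS match at -43 and 2 overlapping NRF1 matches, which start at -5 and 1, so that the last capitals of the printed sequence are the beginning of a match that runs past the start. Over all 32851 windows of the table, 3.77% held the M-box, 20.8% the short CRE, 8.86% the ETS motif and 6.25% the NRF1 motif.

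The ETS motif was the one most often found, in 5 of the 11 windows, and its surroundings are printed for comparison, with 15 bases on each side and the match in capitals. The windows are chr7:79466290-79466326 (minus strand) for Polg, chr10:71238070-71238106 (minus) for Tfam, chr10:79746603-79746639 (minus) for Polrmt, chr16:84835016-84835052 (plus) for Gabpa itself, and chr19:45006433-45006469 and chr19:45006477-45006513 (plus) for Twnk.
Polg: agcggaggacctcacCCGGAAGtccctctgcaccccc
Tfam: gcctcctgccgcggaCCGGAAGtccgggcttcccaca
Polrmt: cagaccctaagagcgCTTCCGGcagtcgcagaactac
Gabpa: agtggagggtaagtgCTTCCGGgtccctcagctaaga
Twnk, first match: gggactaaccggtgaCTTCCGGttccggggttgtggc
Twnk, second match: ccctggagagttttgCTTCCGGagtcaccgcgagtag

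These 5 genes did not move as 1 group: in treated cells Twnk and Gabpa rose, Polrmt fell, and Tfam and Polg did not pass the test, as given gene by gene below. NRF1 matches stood in 3 of the 11 windows, those of Polrmt, Esrra (at -141) and Tfb2m (at 12). The ERR core stood in the other Twnk window (at -123), which also held an M-box (at -244). The short CRE stood in the Polg window as well (at -90) and in the Twnk window with the ETS matches (at 9). The full ERR motif TCAAGGTCA, the full CRE TGACGTCA and the E-box were in none of the 11, against 0.423%, 1.79% and 7.15% of all windows. Neither window of Nrf1 held any of the motifs. These matches describe the letters of the windows and no binding was measured. Bases outside the windows were not searched, and which start the cells used was not examined. A motif missing from a window may therefore lie elsewhere at the gene.

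In treated cells the largest changes among the 10 genes were a fall of Polrmt (a percent change of -32.6%) and a rise of Ppargc1a by 27.2%. Twnk rose 1.16-fold and Gabpa by 7.36%, and Nrf1 fell by 11.5%. Ppargc1b, Esrra, Tfam, Tfb2m and Polg did not pass the test. In count terms 3 rose, 2 fell and 5 did not pass (quasi-likelihood test of edgeR, p adjusted by Benjamini-Hochberg over all 15150 genes, threshold 0.05). Of all genes tested, 25.1% rose, 27.9% fell and 53.0% changed in either direction, so the 5 of 10 that changed are a share near the background. This background holds tested genes of every level and was not matched to the level of any gene list below. The groups did not overlap for 6 of the 10 genes and for 58.7% of all genes tested. The median log2 fold change was -0.07 over the 10 genes and 0.007 over all genes. Summed over the 10 genes the level was 567 to 576 CPM in control and 569 to 576 CPM in treated libraries, so the groups overlapped in the sum.

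**Figure D1:**
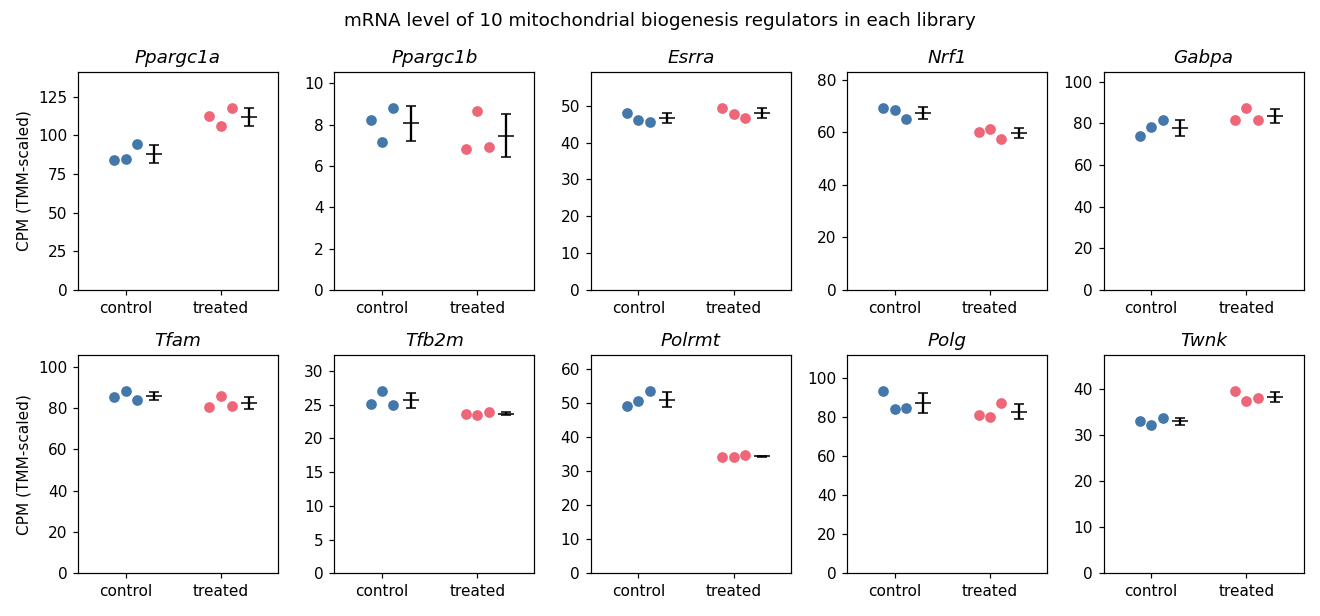
Each panel plots 1 gene, with the TMM-scaled CPM of the 3 control (blue) and 3 treated (red) libraries as points, and the mean with its SD as a black bar beside them; the vertical axes start at 0 and differ in range. The 3 treated libraries of Polrmt lie between 34.3 and 34.7 CPM, below all controls, and those of Ppargc1a between 105.8 and 117.5 CPM, above all controls.

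Ppargc1a (ENSMUSG00000029167) encodes PGC1 alpha, the inducible coactivator of the family. It measured 84.3, 85.0 and 94.6 CPM in control replicates 1, 2 and 3 and 112.3, 105.8 and 117.5 CPM in treated replicates 1, 2 and 3. The lowest treated library lay above the highest control. The log2 fold change was 0.35 ± 0.04 (SE, n = 3 per group, edgeR adjusted p = 1.81e-07), or 1.27-fold, and it was past the threshold with values between 0.31 and 0.43 in each of the 13 other settings tried, leaving out each library among them.

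Ppargc1b (ENSMUSG00000033871) encodes PGC1 beta, the close relative that in most tissues varies less with stimuli. It was the lowest of the 10 genes, with 8.24, 7.14 and 8.79 CPM in control and 6.84, 8.65 and 6.90 CPM in treated libraries. Treated replicate 2 lay among the controls and the other 2 treated libraries lay below them. The log2 fold change was -0.11 (95% interval -0.35 to 0.12, edgeR adjusted p = 0.434), and the call was not made in any of the 14 settings.

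Counted within each library, which needs no scaling between libraries, there were 10.2, 11.9 and 10.8 Ppargc1a counts for each Ppargc1b count in the controls and 16.4, 12.2 and 17.1 in the treated libraries. All 3 treated ratios lay above all 3 control ratios, treated replicate 2 by a small margin. The mean log2 ratio moved from 3.45 ± 0.11 to 3.91 ± 0.26 (SD, n = 3), a 1.38-fold difference with an exact two-sided permutation p = 0.1, the smallest that 3 against 3 libraries allow. The ratio of Ppargc1a to Esrra counts, a coactivator and a factor it works with, was 1.75, 1.84 and 2.08 in the controls and 2.28, 2.21 and 2.52 in the treated libraries. These did not overlap either, with a 1.24-fold difference and the same exact two-sided p = 0.1.

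Esrra (ENSMUSG00000024955) encodes ERR alpha, the orphan nuclear receptor through which PGC1 alpha reaches many respiratory genes. It measured 48.1, 46.2 and 45.5 CPM in control and 49.3, 47.8 and 46.7 CPM in treated libraries, and the groups overlapped. The log2 fold change was 0.04 (95% interval -0.05 to 0.13, edgeR adjusted p = 0.445). Scaled by plain library totals it passed as a rise (log2 fold change 0.12, edgeR adjusted p = 0.0212).

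Nrf1 (ENSMUSG00000058440) encodes nuclear respiratory factor 1, which binds promoters of Tfam and of respiratory chain genes and is not the stress factor NFE2L1 that shares the abbreviation. It measured 69.1, 68.3 and 64.8 CPM in control and 60.1, 61.2 and 57.6 CPM in treated libraries, all treated below all controls. It fell by 0.18 ± 0.04 on the log2 scale (edgeR adjusted p = 4.32e-04), and by 0.10 to 0.20 over the other settings, each past the threshold.

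Gabpa (ENSMUSG00000008976) encodes the DNA-binding subunit of GABP, also called NRF2 in this field and distinct from NFE2L2. It measured 73.9, 78.2 and 81.5 CPM in control and 81.6, 87.3 and 81.7 CPM in treated libraries. The groups were separated by under 0.1 CPM, with control replicate 3 next to treated replicates 1 and 3. The log2 fold change of 0.10 ± 0.04 (edgeR adjusted p = 0.0277) lost its call without control replicate 1 (0.07, edgeR adjusted p = 0.159), without control replicate 2 (0.10, 0.0544) and without treated replicate 2 (0.07, 0.186).

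The 3 genes of mitochondrial transcription differed among themselves. Tfam (ENSMUSG00000003923) encodes the factor that packs mitochondrial DNA and opens its promoters. It measured 85.2, 88.0 and 84.0 CPM in control and 80.6, 85.7 and 81.2 CPM in treated libraries, with treated replicate 2 above 2 of the controls. Its log2 fold change was -0.05 (95% interval -0.12 to 0.02, edgeR adjusted p = 0.183). The sign was positive when libraries were scaled by plain totals or by level-dependent offsets (0.02 in both). The TMM factors themselves were 0.972 to 0.974 in control and 1.02 to 1.03 in treated libraries.

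Tfb2m (ENSMUSG00000026492) encodes the factor that melts the promoter together with the polymerase. It measured 25.1, 27.0 and 24.9 CPM in control and 23.6, 23.4 and 24.0 CPM in treated libraries. All treated libraries lay below all controls, yet the log2 fold change of -0.11 (95% interval -0.24 to 0.01) did not pass (edgeR adjusted p = 0.114).

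Polrmt (ENSMUSG00000020329) encodes the mitochondrial RNA polymerase, which transcribes mitochondrial DNA and primes its replication. It measured 49.3, 50.6 and 53.5 CPM in control and 34.3, 34.4 and 34.7 CPM in treated libraries. The treated libraries lay close together and far below the lowest control. Polrmt fell by 0.57 ± 0.04 on the log2 scale (95% interval -0.66 to -0.48, edgeR adjusted p = 2.08e-10), and by 0.49 to 0.59 over the other settings. By the size of its log2 fold change it stood at rank 2298 of 15150 genes, and Ppargc1a at rank 4805.

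**Figure D2:**
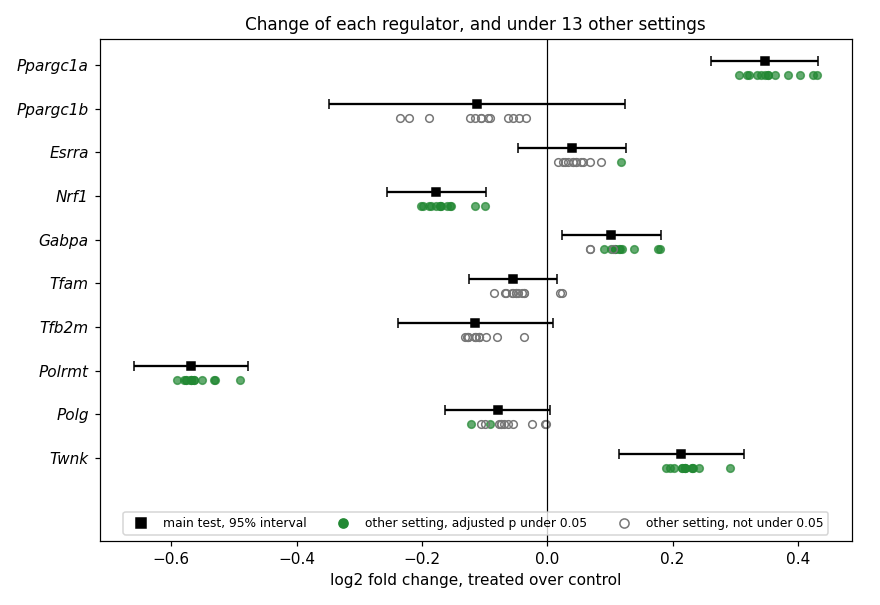
For each gene the black square is the log2 fold change of treated over control libraries with its 95% interval, and the circles are the same value in each of 13 other settings, filled green where the adjusted p was under 0.05. Polrmt, Nrf1, Ppargc1a and Twnk keep to 1 side of 0 with every circle filled, and the circles of Tfam lie on both sides.

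Of the 2 replication genes, Polg (ENSMUSG00000039176) encodes the catalytic subunit of the mitochondrial DNA polymerase. It measured 93.1, 84.1 and 84.7 CPM in control and 81.3, 79.8 and 87.3 CPM in treated libraries, so that the groups overlapped through treated replicate 3. The log2 fold change was -0.08 (95% interval -0.16 to 0.004, edgeR adjusted p = 0.104), and it passed as a fall without treated replicate 3 (-0.12, edgeR adjusted p = 0.0202) and with no filter (-0.09, 0.0277). It was nearer 0 and not past the threshold without control replicate 1 (-0.025), under plain totals (-0.0014) and under level-dependent offsets (-0.0031).

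Twnk (ENSMUSG00000025209) encodes Twinkle, the helicase that unwinds mitochondrial DNA ahead of that polymerase. It measured 33.1, 32.2 and 33.8 CPM in control and 39.5, 37.4 and 38.1 CPM in treated libraries, all treated above all controls. It rose by 0.21 ± 0.05 on the log2 scale (edgeR adjusted p = 6.54e-04), and by 0.19 to 0.29 over the other settings, each past the threshold.

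Whether the counting used strand is not stated, and 4 of the 10 genes share exon bases with a gene on the opposite strand in GENCODE M21. Twnk shares 507 bases, 12.6% of its exonic length, with Mrpl43 (log2 fold change -0.13, adjusted p = 0.160 by edgeR). Polg shares 921 bases (8.57%) with Fanci (-0.07, 0.192), Gabpa 397 bases (6.98%) with Atp5j (0.05, 0.133) and Esrra 73 bases (1.66%) with Trmt112 (-0.12, 0.190). Esrra also holds the microRNA gene Mir6990 on its own strand. None of these 4 partners passed the test. Ppargc1a, Ppargc1b, Nrf1, Tfam, Tfb2m and Polrmt share no exon base with another annotated gene.

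The levels can be set beside each other only per length of exon, here the summed exons of all annotated isoforms. This sum can exceed the length of the transcript that the cells make, so the order depends on it. It was longest for Polg (10742 bases) and Nrf1 (10282 bases). Before division by length, Polg had 87.3 and Tfam 85.7 mean CPM in control. The SD covers the libraries and not the choice of length. In control cells Tfam was highest with 19.3 ± 0.46 CPM per kb, followed by Gabpa (13.7 ± 0.67) and Ppargc1a (13.3 ± 0.87), which did not differ beyond their spread. Polrmt (10.9 ± 0.46) and Esrra (10.6 ± 0.31) overlapped as well, as did Twnk (8.23 ± 0.20) and Polg (8.13 ± 0.47), with Tfb2m (9.15 ± 0.40) between these pairs. Nrf1 had 6.56 ± 0.22 and Ppargc1b 2.02 ± 0.21 CPM per kb (SD, n = 3 throughout). In treated cells Ppargc1a stood second with 17.0 ± 0.89, above Gabpa with 14.7 ± 0.58 and with no overlap between them. Polrmt stood eighth with 7.36 ± 0.04, below Polg with 7.71 ± 0.37. The other neighbours in the treated order did not overlap either.

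**Figure D3:**
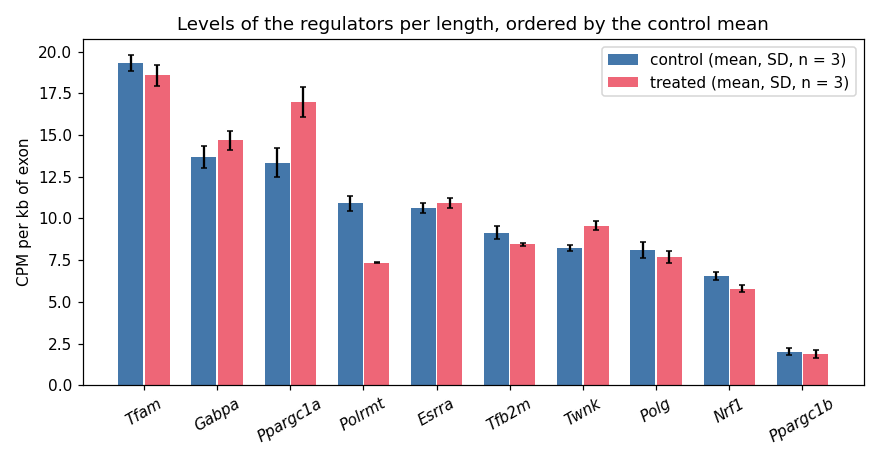
Bars give the mean CPM per kb of exon in control (blue) and treated (red) libraries with the SD of 3 libraries, ordered by the control mean. Ppargc1a moves above Gabpa in treated cells, and Polrmt moves from 10.9 to 7.36, below Twnk and Polg.

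Among 146 tested genes on the lists described here, those whose log2 CPM followed Ppargc1a most closely over the 6 libraries were Cox4i1, a subunit of cytochrome oxidase (Pearson r = 0.980), the retinoid receptor gene Rxrb (0.966) and Mpv17, a gene of mitochondrial DNA maintenance (0.966). Of the other 9 regulators Twnk had the highest r (0.954), behind 5 listed genes. With 2 groups of 3 libraries the difference between the groups is part of every such r, which is given as a description. Among the 10 genes themselves, Nrf1 ran most nearly opposite to Ppargc1a (r = -0.996) and Ppargc1b was only loosely related to it (r = -0.382).

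Genes known to control Ppargc1a or its protein went both ways. Of 27 upstream regulators, 6 rose (22.2% against 25.1% of all genes), 12 fell (44.4% against 27.9%) and 9 did not pass. The median log2 fold change was -0.05 against 0.007 over all genes. The pigment cell factor gene Mitf fell by 0.50 ± 0.02. The catalytic AMPK subunit gene Prkaa1, whose product phosphorylates PGC1 alpha, fell by 0.21, the acetyltransferase gene Kat2a, whose product represses PGC1 alpha, by 0.31, and Flcn, which restrains Ppargc1a in muscle of the mouse, by 0.40. Mef2a, a gene of a muscle and nerve factor that activates Ppargc1a, rose by 0.29 on the log2 scale (edgeR adjusted p between 3.49e-14 and 1.53e-06 for these 5). With library totals or with level-dependent offsets 10 of the 27 rose. Whether any of these genes had a part in the change of Ppargc1a was not tested.

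Of 18 tested partner factors of 21 listed, 5 rose, 6 fell and 7 did not pass (median log2 fold change 0.03). The shares of 27.8% rising and 33.3% falling are near the 25.1% and 27.9% of all genes. Esrrg and Pparg were too low to test and Esrrb was not analysed here. Pprc1, the remaining gene of the PGC1 family, fell from 76.9 to 63.0 mean CPM (log2 fold change -0.29, edgeR adjusted p = 1.80e-06), opposite in direction to Ppargc1a. Gabpb2, a gene of a partner subunit of GABP alpha, fell by 0.28, whereas Gabpb1 did not pass (-0.08, edgeR adjusted p = 0.136). The cofactor gene Hcfc1 fell by 0.36 and the Mediator gene Med1 by 0.19 on the log2 scale. With library totals 9 of these genes rose.

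Of 26 other genes of mitochondrial DNA transcription, replication and nucleoids, 6 rose, 8 fell and 12 did not pass (median log2 fold change -0.05). These shares, 23.1% and 30.8%, are likewise near the 25.1% and 27.9% of all genes. The DNA ligase gene Lig3 fell by 0.43, the nuclease and helicase gene Dna2 by 0.59 and the nucleoid gene Atad3a by 0.29, and the primase gene Primpol rose by 0.61 on the log2 scale. Ssbp1, whose single-strand binding protein works beside Twinkle and the polymerase, was level at 60.3 mean CPM in both groups (adjusted p = 0.998, edgeR). Polg2, the accessory subunit of the polymerase, did not pass (log2 fold change -0.29, edgeR adjusted p = 0.0703). Of 16 listed genes of mitochondrial RNA processing and stability, 15 were tested and Slirp was too low to test. Among the 15, none rose, 8 fell and 7 did not pass, a fall in 53.3% against 27.9% of all genes. Tbrg4 fell by 0.50, Lrpprc by 0.39, Elac2 by 0.51 and Pnpt1 by 0.30, while the mitochondrial poly(A) polymerase gene Mtpap did not pass (log2 fold change 0.003, edgeR adjusted p = 0.977). With library totals or with a filter at 1 CPM, 1 gene of this list rose.

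Of 30 listed targets of PGC1 and ERR, 22 were tested, of which 13 fell (59.1% against 27.9% of all genes), 4 rose (18.2% against 25.1%) and 5 were not called, and the median log2 fold change was -0.13. The carnitine transferase gene Cpt1a fell by 0.56 and Uqcrc1, Sdhb and Atp5b, of respiratory complexes III, II and V, fell by 0.42, 0.29 and 0.19. Cycs (cytochrome c) and Idh3a, a tricarboxylic acid cycle gene, fell by 0.13 and 0.24 on the log2 scale (edgeR adjusted p = 1.26e-04 and 1.02e-08). The 4 targets that rose were Sirt3 (0.27), Vegfa (0.22), Cat (0.09) and Cox4i1 (0.10), the last being the listed gene that followed Ppargc1a most closely. The count of 13 falling genes depended on scaling, being 8 of 22 under plain totals and 7 of 22 under level-dependent offsets, and the 4 rising genes were 2 without control replicate 1 or without treated replicate 2. Across all genes the balance of calls also moved with scaling, from 47.4% higher among the changed genes to 62.5% with library totals.

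**Figure D4:**
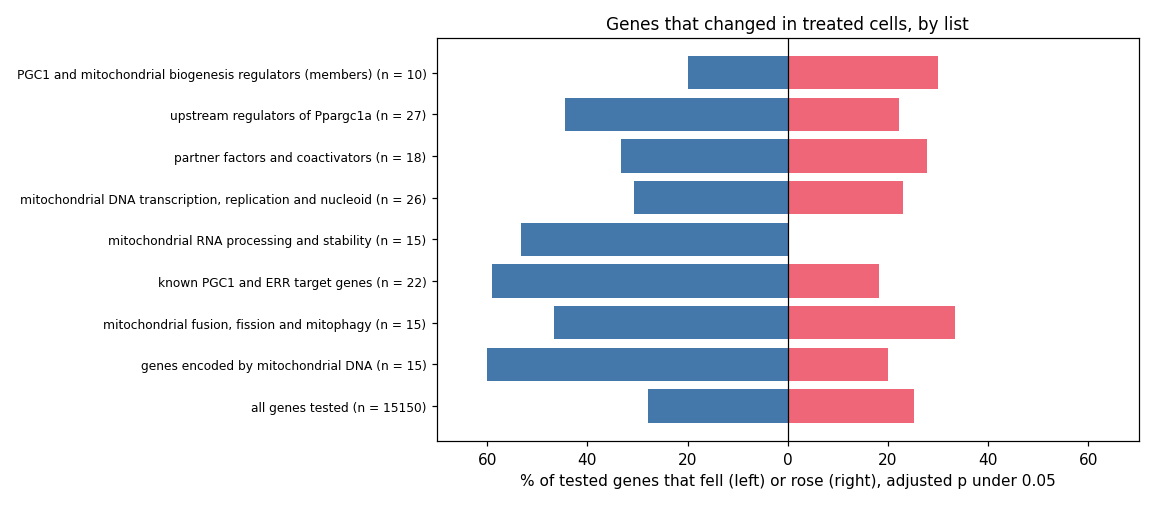
For each list, and for all 15150 genes, bars give the percentage of tested genes that fell (blue, to the left) or rose (red, to the right) in treated libraries at an adjusted p under 0.05. The 10 regulators lie near all genes, with 3 of 10 rising and 2 of 10 falling, and no gene of mitochondrial RNA processing rose.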

How the data were processed

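The authors deposited raw read counts per gene, 1 column per library. Per the submitters' processing notes, fastp 0.22.0, HISAT2 2.2.0 and featureCounts 2.0.6 were used; builds hg38 and mm39 are listed with no role, and the sources used here give neither the annotation nor the strand setting. All 6 columns were matched by the library names in the labels (0 left over). Symbols and exonic lengths came from GENCODE M21 (GRCm38), which named 26531 of 27067 identifiers; coordinates are RefSeq's on GRCm38.p6 and belong to the promoter windows alone.

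Genes were kept by filterByExpr (minimum count 10, total 15), scaled by TMM and tested with edgeR 4.0.16 (glmQLFit, glmQLFTest, group as single term, two-sided, Benjamini-Hochberg over 15150 genes) in R 4.3.3. The SE is the absolute log2 fold change over the square root of F, and intervals use the test's total degrees of freedom. CPM are on TMM-scaled totals of the kept genes. The common coefficient of variation was 3.70%. The procedure was tested on simulated data. Between libraries of a group the mean chi-square statistic per gene was at least 3.25, so none repeated another of its group. Pairs across groups were compared by correlation alone, which was at most 0.986.

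The 10 genes and the lists were chosen with earlier results of these data known. Named list genes are the 4 with the smallest adjusted p and up to 2 of central role, to which the 4 rising targets and mt-Nd5 were added. Alternatives were other scalings (median of ratios, totals, cyclic loess offsets by limma 3.58.1), 2 filters, DESeq2 1.42.0, the replicate block and leaving out each library.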

Additional observations from a re-analysis of the deposited data

How the results depend on the processing

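Of 130 recomputed values for the 10 genes (13 settings each), 122 kept their direction and their side of the threshold, 3 lost the call, 3 gained one and 2 changed sign. The sign changes were those of Tfam under plain totals (0.0233) and under level-dependent offsets (0.0210), neither past the threshold. The lost calls were all of Gabpa and the gained ones were of Esrra (library totals) and Polg (no filter, without treated replicate 3); the cause was not tested. Ppargc1a, Nrf1, Polrmt and Twnk passed in all 14 settings, with the highest adjusted p at 0.0346 for Nrf1. Both count ratios kept their direction without each library in turn and with 1 count added. Of 182 recomputed counts for the lists, 15 moved by over 1.5 times, most of them under library totals or level-dependent offsets. Library totals shift the median of all genes by 0.08 on the log2 scale.

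Same-numbered libraries of the 2 groups showed no shared deviation: their deviations correlated at -0.01, -0.04 and 0.008 for replicates 1, 2 and 3. This cannot show whether they were handled together, and no label says so. With the replicate block 3804 genes were higher and 4257 lower against 3809 and 4223 without it, and no call among the 10 genes changed. Depth limits Ppargc1b most, at 220 to 322 counts per library.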

Other observations

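Genes that shape and clear mitochondria moved both ways. Of 15 tested genes of fusion, fission and mitophagy, 5 rose (33.3% against 25.1% of all genes), 7 fell (46.7% against 27.9%) and 3 did not pass. The median log2 fold change was -0.03 against 0.007 over all genes. The mitophagy receptor genes Bnip3l and Bnip3 rose by 0.39 and 0.31 and the kinase gene Pink1 rose by 0.50, while Opa1, a gene of inner membrane fusion, fell by 0.37, Mfn2, of outer membrane fusion, by 0.15 and the fission gene Dnm1l by 0.08 on the log2 scale (edgeR adjusted p between 2.12e-11 and 0.0221). The 7 falling genes became 2 under plain totals and 1 under level-dependent offsets.

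Transcripts of mitochondrial DNA, the product of the polymerase that Polrmt encodes, took 2.86% to 2.93% of all counts in control and 3.04% to 3.14% in treated libraries over the 15 genes listed. On the TMM scale the same genes summed to 29410 to 30150 CPM in control and 29540 to 30670 CPM in treated libraries, and the groups overlapped. Of these 15, 3 rose (20% against 25.1% of all genes), 9 fell (60% against 27.9%) and 3 did not pass. Of the 9 that fell, mt-Nd6, mt-Co2 and mt-Atp8 had groups that overlapped. Among the 15, mt-Rnr1 rose by 0.62, mt-Co1 by 0.23, and mt-Cytb and mt-Atp6 fell by 0.44 and 0.36 on the log2 scale. The share and the sum are weighted to mt-Co1, the most abundant of the 15. It had 12940 mean CPM in control and 15210 in treated libraries, whereas mt-Cytb, next in level, had 5424 and 4009. Neither the share nor the sum describes the 9 genes that fell. Scaled by plain totals, or by level-dependent offsets, 5 of the 15 rose and 5 fell. With DESeq2 3 rose and 6 fell, and without control replicate 1 2 rose and 6 fell. At such levels small changes can pass, as with mt-Nd5, which had 2437 mean CPM in control and rose by 0.04 on the log2 scale. The shares of all genes were not matched for level. As background, the RNAs of mitochondrial DNA are cut from shared precursor transcripts, and the libraries held polyadenylated RNA. Polrmt was lower in the same libraries by the values given above, and its part in these levels was not tested.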
